A study of Mus musculus with 2 samples.

Results

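The 10 genes described here encode the core machinery of MHC class I antigen presentation: H2-K1, H2-D1, B2m, Tap1, Tap2, Tapbp, Psmb8, Psmb9, Psmb10 and Nlrc5. They were chosen by name, for their place in this pathway, from the 32285 genes counted in both libraries, and all 10 were detected in every cell class below. The study asked how loss of Dnmt1 in endothelial cells (ECs) changes the vessels of tumors grown from YUMMER1.7, an immunogenic mouse melanoma line. Its single-cell data are 1 control library and 1 Dnmt1iECKO library of 10x Genomics 3′ RNA-seq, each from live CD31+ CD45- cells sorted from the pooled tumors of 3 female mice aged 8 to 10 weeks.

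The Dnmt1iECKO mice carry Cdh5CreERT2, Dnmt1 fl/fl and ZsGreen lsl/lsl, so that tamoxifen removes Dnmt1, the maintenance DNA methyltransferase, wherever the Cdh5 promoter is active, in vessels of all organs as well as of the tumor. The control label gives C57BL/6 alone, whereas the study's methods give controls that carry Cdh5-Cre and ZsGreen. The labels place the tumors under the skin, whereas the methods describe lung tumors after injection into the tail vein. The libraries held 9301 and 9522 barcodes with a median of 8904 and 8762 UMIs, and shared 29 barcode sequences. UMIs are counted molecules, and levels are given as UMIs per 1000000 (UPM), scaled to all UMIs of a class and library.

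With 1 library per condition, no difference between the conditions has a replicate check, and no p-value is given. Intervals are exact 95% intervals that cover counting error only. Each count of a 3′ library stands for 1 transcript end, so levels of different genes were compared without scaling to length.

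MHC class I molecules carry short peptides of intracellular proteins to the cell surface, where CD8+ T cells read them. The proteasome cuts proteins into peptides, the TAP transporter moves these into the endoplasmic reticulum, tapasin holds the empty class I molecule next to TAP, and a heavy chain with beta-2 microglobulin takes up a fitting peptide. Interferons, most of all interferon gamma (IFNγ), raise the whole set, partly through the transactivator NLRC5. ECs present antigen to T cells that pass along or through the vessel wall, and tumor cells can lose this machinery.

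The promoters of the heavy chains and of B2m are printed because these 3 genes hold most of the UMIs described here and share a string of short elements. The sequences are the 250 bases before the start site in RefSeq, build GRCm38.p6, written 5′ to 3′ on the strand of the gene. Tap2 and Nlrc5 had no entry. Capitals mark motifs found on either strand: the κB-like site GGGNNTTCC, interferon response cores GAAANNGAA or GAANNGAAA, TGACG and CCAAT. The second of the interferon cores and the searches for TGACG and for its pair with CCAAT were added after the letters had been read. The H2-K1 window is chr17:34000348-34000597, minus strand, and the H2-D1 window is chr17:35262844-35263093, plus strand. The B2m window is chr2:122147437-122147686, plus strand.
H2-K1: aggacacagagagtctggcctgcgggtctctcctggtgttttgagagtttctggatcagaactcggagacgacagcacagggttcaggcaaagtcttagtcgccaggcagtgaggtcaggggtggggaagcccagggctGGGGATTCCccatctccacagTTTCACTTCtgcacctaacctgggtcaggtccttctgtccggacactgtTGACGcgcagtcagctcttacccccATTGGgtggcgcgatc
H2-D1: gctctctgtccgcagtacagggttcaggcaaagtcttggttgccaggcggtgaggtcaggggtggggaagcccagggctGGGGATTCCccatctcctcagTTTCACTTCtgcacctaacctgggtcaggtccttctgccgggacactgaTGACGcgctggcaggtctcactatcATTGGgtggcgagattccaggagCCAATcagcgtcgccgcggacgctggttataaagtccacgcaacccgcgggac
B2m: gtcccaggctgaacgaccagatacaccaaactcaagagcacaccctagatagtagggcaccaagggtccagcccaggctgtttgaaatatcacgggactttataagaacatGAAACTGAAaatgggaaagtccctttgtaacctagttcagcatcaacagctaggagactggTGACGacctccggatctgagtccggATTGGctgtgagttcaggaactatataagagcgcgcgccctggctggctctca
In all 3 windows TGACG was followed by ATTGG, the reverse of CCAAT, with 20 bases between them. A pair in this order with 15 to 25 bases between was present in 109 of 27025 promoters of this length, or 0.403%. These limits lie on both sides of the 20 bases found here, so this share describes the pair and does not test it. The windows of Tap1, Tapbp, Psmb8, Psmb9 and Psmb10 were searched as well and held no such pair. In GENCODE vM21 the outermost starts of H2-D1, Tapbp and Psmb8 are at 35262730, 33915899 and 34197721. These lie before their windows, so that there the windows fall within the genes. TGACG alone was in 17.9% of the 27025 promoters and CCAAT in 34.5%. The κB-like site of H2-K1 and H2-D1 was in 4.88% of promoters, their interferon core in 6.34%, and the other form found in B2m in 7.16%. The H2-K1 and H2-D1 windows were identical in 174 of 310 aligned columns, or 56.1%. Columns with a gap count as unlike in this figure, so it is below the identity of the bases set against each other. The windows are offset: the κB-like site began at base 140 in H2-K1 and 80 in H2-D1, and TGACG at 210 and 150.

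Tap1 and Psmb9 are divergent neighbours, and the 225 bases between their RefSeq starts are shown because this stretch lies upstream of both. In GENCODE vM21 the outermost starts are placed differently, at 34187764 for Psmb9 and 34187553 for Tap1, so that there the genes overlap and have no gap. The stretch is chr17:34187331-34187555, plus strand, with the start of Psmb9 at its left and that of Tap1 at its right.
Psmb9 to Tap1: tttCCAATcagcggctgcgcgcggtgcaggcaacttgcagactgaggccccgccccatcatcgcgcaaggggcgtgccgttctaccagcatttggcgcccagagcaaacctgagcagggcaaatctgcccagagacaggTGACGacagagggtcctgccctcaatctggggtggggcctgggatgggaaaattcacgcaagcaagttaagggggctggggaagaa
It held 1 TGACG and 1 CCAAT, marked in capitals. In GENCODE, Tap1 and Psmb9 overlap in antisense, as B2m and Patl2 do. Tap2, Tapbp, Psmb8, Psmb10 and Nlrc5 also overlap other genes in antisense. On the same strand, Tapbp overlaps Zbtb22 and Nlrc5 overlaps Mir7072. Whether counting used the strand is not given in the sources used here. Among the last 500 bases of the longest transcript, 0.444% of the 50-base windows of H2-K1 and 9.53% of those of H2-D1 occurred in transcripts of another gene, so that a part of H2-D1 reads may have been dropped or shared. For the other 8 genes no window did. Dnmt1 maintains methylation at CpG sites, and these windows held 9 CpGs in H2-K1, 14 in H2-D1 and 8 in B2m, against a median of 6 over all promoters with quartiles of 2 and 16. No methylation was measured in this experiment.

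Cells were sorted into classes by cluster together with single UMIs. ECs were cells of endothelial clusters in which Cdh5 or Pecam1 had 1 UMI or more, with none of Ptprc, Epcam, Cspg4 or Myh11, and numbered 3579 in control and 1456 in Dnmt1iECKO. Immune cells had at least 1 UMI of Ptprc in an immune cluster and numbered 1184 and 4253, although the sort was for cells without CD45. Epithelial cells numbered 176 and 94, and stromal cells 249 and 344. A further cluster led by Hmga2 gave 114 and 166 cells with an Hmga2 UMI and no Ptprc UMI. These 5302 and 6313 cells were taken from 7736 and 7807 that passed the quality filters, and the counts of cells reflect the sort and not the makeup of a tumor.

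Markers of the classes and the targeted gene were then read. All 7 endothelial markers were detected in ECs, at 7856 UPM together in control and 7087 in Dnmt1iECKO. These markers helped to define the class, so their detection does not check it. Dnmt1 was at 51.9 UPM in control and 27.9 in Dnmt1iECKO ECs, a log2 ratio of −0.90 (−1.04 to −0.76), so a part of the count remained. Counts from the 3′ end can lie outside the deleted exons, and such a count checks the level of the transcript and not the deletion itself. In Hmga2-positive cells it was at 93.1 and 98.6 UPM. Epithelial cells, with 87 and 35 UMIs of Dnmt1, were at 27.0 and 17.4 UPM.

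Hmga2-positive cells are the putative tumor cells, a name that rests here on Hmga2, the gene by which they were chosen. Hmga2 was at 1964 and 1799 UPM there against 2.29 and 1.86 in ECs, a difference that follows from that choice and does not check the name. The pigment cell genes Mlana and Dct had no UMI in either library, Sox10 had 0 and 1, and Pmel had 6 and 5. Mitf was at 26.3 and 35.0 UPM, near its level in ECs at 27.4 and 23.9. Fibroblast genes were present, with Col1a2 at 401 and 475 UPM and Col3a1 at 528 and 505. A median Hmga2-positive cell held 79810 UMIs in control and 81062 in Dnmt1iECKO, against 10356 and 10556 in ECs.

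Among the cell classes above, each taken as a whole, ECs held the highest level of most of the machinery. Of the 10 genes, 8 were highest in ECs in both libraries. All 10 were lowest in epithelial cells in Dnmt1iECKO, as 7 were in control. Single immune clusters lay above ECs for some of these genes. T cells did so for H2-K1, at 2365 and 2182 UPM, and dendritic cells for Tap1, at 164 and 162. Macrophages did so for B2m in Dnmt1iECKO, at 5525 UPM, but not in control, at 4735. The 10 genes together were at 10375 UPM in control and 10552 in Dnmt1iECKO ECs.
They were at 8526 and 8732 UPM in immune cells, and at 7241 and 8368 in Hmga2-positive cells. Stromal cells were at 6288 and 7158, and epithelial cells at 5358 and 4162.
B2m, which encodes the light chain shared by all class I molecules, was the largest part of each sum.

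**Figure D1:**
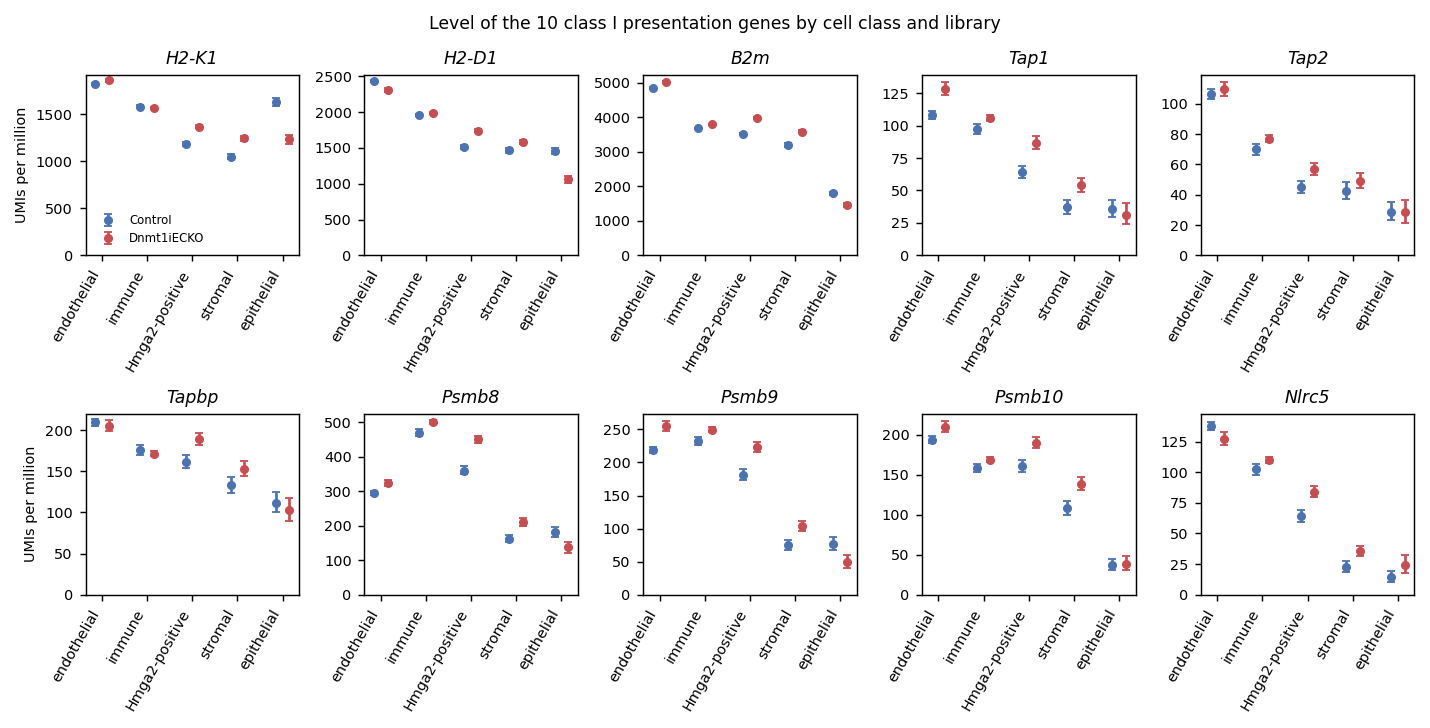
Level of each of the 10 genes in UMIs per 1000000 (y axis, linear from 0) in endothelial, immune, epithelial, stromal and Hmga2-positive cells (x axis) of the control and Dnmt1iECKO libraries. Points are levels of summed cells with exact 95% Poisson intervals; B2m is highest in endothelial cells at 4845 and 5023, and Nlrc5 is near the axis in epithelial cells at 14.3 and 24.4.

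The heavy chains and their light chain differed little between the libraries in ECs. H2-K1, the H-2K heavy chain, was at 1823 UPM (1811 to 1836) in control and 1860 (1840 to 1879) in Dnmt1iECKO, a log2 ratio of 0.03 (0.01 to 0.05). H2-D1, the H-2D heavy chain, was at 2438 (2423 to 2453) and 2308 (2286 to 2330), a log2 ratio of −0.08 (−0.10 to −0.06). B2m was at 4845 (4824 to 4865) and 5023 (4991 to 5055), a log2 ratio of 0.05 (0.04 to 0.06). H2-K1 and B2m were thus slightly higher and H2-D1 slightly lower in Dnmt1iECKO, each by under 1.2-fold and each beyond its counting error. Of the UMIs of both heavy chains, H2-K1 took 42.8% (42.6 to 43.0) in control and 44.6% (44.3 to 44.97) in Dnmt1iECKO.

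The transport and loading genes moved unequally. Tap1, a subunit of the peptide transporter, was at 108 UPM (105 to 111) in control and 129 (124 to 134) in Dnmt1iECKO, a log2 ratio of 0.25 (0.18 to 0.32). Tap2, its partner subunit, was at 107 (103 to 110) and 110 (105 to 115), a log2 ratio of 0.04 (−0.03 to 0.12). Tapbp, which encodes tapasin, was at 210 (205 to 214) and 206 (199 to 212), a log2 ratio of −0.03 (−0.08 to 0.03). Tap1 was the member with the largest ratio in ECs, at 1.19-fold, whereas the intervals of Tap2 and Tapbp held 0.

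All 3 inducible catalytic subunits, which take the place of constitutive ones in the immunoproteasome, were higher in Dnmt1iECKO ECs. Psmb8 was at 295 UPM (290 to 300) and 324 (315 to 332), a log2 ratio of 0.13 (0.09 to 0.18). Psmb9 was at 219 (215 to 224) and 255 (248 to 263), a log2 ratio of 0.22 (0.17 to 0.27). Psmb10 was at 194 (190 to 198) and 210 (204 to 217), a log2 ratio of 0.12 (0.06 to 0.17). Nlrc5, which encodes the transactivator of class I genes, went the other way, at 138 (134 to 141) and 128 (123 to 133) with a log2 ratio of −0.11 (−0.18 to −0.04).

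In ECs 7 of the 10 genes were higher in Dnmt1iECKO, where 47.0% of all genes were higher. Of the 10, 6 had an interval above 0, 2 an interval below 0 and 2 an interval that held 0. The share of all genes with an interval above or below 0 was not computed in any class. None of the 10 genes reached 1.2-fold in either direction, whereas 13.5% of 11982 genes with at least 100 UMIs were that much higher and 11.2% that much lower. The median log2 ratio of the 10 genes was 0.05 beside −0.01 over all genes. The shares of the endothelial classes also differed between the libraries, and the part of this in the ratios was not tested. Without the cluster led by Ubd, described below, the log2 ratio was 0.16 for Tap1, 0.05 for Psmb8, 0.15 for Psmb9 and 0.01 for B2m. With the Dnmt1iECKO classes weighted by their shares in control, Psmb8 was at 0.07 and Psmb9 at 0.16. Markers of other cell types were also present and not equal in both EC groups. All immune markers together were at 5.61 UPM in control and 13.2 in Dnmt1iECKO, and neutrophil markers at 1.5 and 8.39. Alveolar type 2 markers were at 49.97 and 18.5, and alveolar type 1 markers were far higher, at 398 and 348. Their part in these ratios was not tested.

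**Figure D2:**
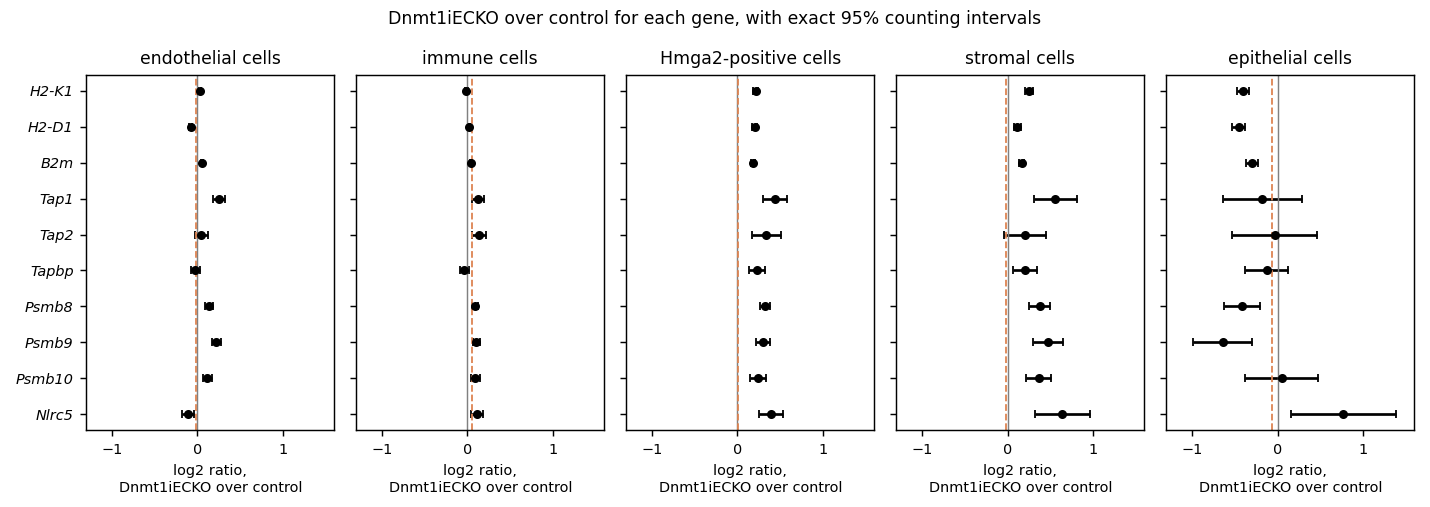
Log2 ratio of Dnmt1iECKO over control (x axis) for each of the 10 genes (y axis) in 5 cell classes, with exact 95% counting intervals; the solid line marks 0 and the dashed line the median over all genes of the class. In ECs the points lie between −0.11 and 0.25, in Hmga2-positive and stromal cells all 10 lie to the right of 0, and in epithelial cells most lie to the left.

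Within the 20S proteasome, the balance of inducible and constitutive subunits shapes which peptides are cut, so each inducible subunit was set against the subunit it replaces. Psmb8 took 71.8% (71.1 to 72.4) of its UMIs with Psmb5 in control ECs and 75.4% (74.4 to 76.3) in Dnmt1iECKO. Psmb9 took 63.7% (63.0 to 64.5) and 67.7% (66.6 to 68.8) of its UMIs with Psmb6. Psmb10 took 68.5% (67.7 to 69.4) and 69.95% (68.7 to 71.1) of its UMIs with Psmb7. Over all 6 genes the inducible share was 68.2% (67.8 to 68.7) in control and 71.3% (70.7 to 71.9) in Dnmt1iECKO, a difference of 3.06 percentage points.

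This share separated the cell classes. It was 67.3% and 69.7% in immune cells, close to ECs. In Hmga2-positive cells it was 44.8% (44.0 to 45.6) in control and 51.6% (50.9 to 52.2) in Dnmt1iECKO, and in stromal cells 47.3% (45.7 to 48.8) and 57.4% (56.1 to 58.7). Epithelial cells were at 45.6% (43.4 to 47.8) and 44.2% (41.1 to 47.3), with intervals that overlapped. The share was thus above its control value in 4 of the 5 Dnmt1iECKO classes.

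**Figure D3:**
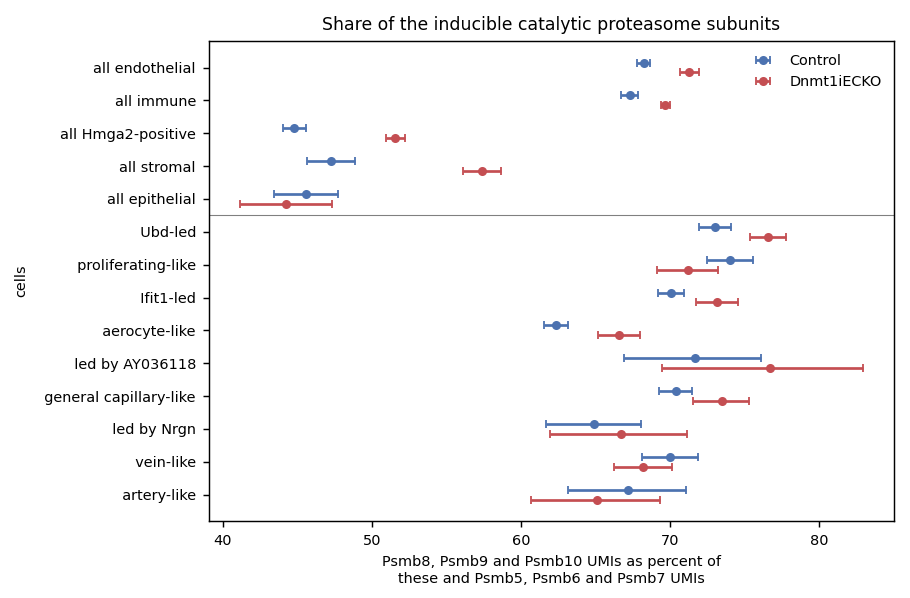
UMIs of Psmb8, Psmb9 and Psmb10 as a percent of these and of Psmb5, Psmb6 and Psmb7 (x axis) by cell class and endothelial class (y axis) in both libraries, with exact 95% binomial intervals. Endothelial and immune cells lie between 67.3% and 71.3%, to the right of Hmga2-positive, stromal and epithelial cells.

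ECs were then split into classes by clustering with the 10 genes left out of the variable genes. Aerocyte-like ECs, the capillaries specialized for gas exchange, were 29.3% of control and 22.1% of Dnmt1iECKO ECs, and general capillary-like ECs 22.8% and 20.1%. A cluster led by Ifit1, which also had the immediate early genes Btg2 and Atf3 among its leading genes, was 24.8% and 22.2%. A cluster led by Ubd and Cxcl9, both IFNγ-inducible, was 7.68% and 11.7%, and vein-like ECs 4.16% and 10.2%. Further clusters were small, and the proliferating-like one also held IFNγ markers.

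The 10 genes together were highest in the Ubd-led cluster, at 11794 UPM in control and 12499 in Dnmt1iECKO. Proliferating-like ECs were at 11157 and 11269, and aerocyte-like ECs at 11087 and 11520. The Ifit1-led cluster was at 10254 and 10633. Lower down, general capillary-like ECs were at 9104 and 9099, vein-like ECs at 8806 and 8347 and artery-like ECs at 7597 and 7201. Both capillary classes and both interferon-marked clusters thus stood above vein-like and artery-like ECs in both libraries.

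The genes did not share an order. B2m was high in Ubd-led ECs at 5623 and 6183 UPM and in aerocyte-like ECs at 5492 and 5786, and low in artery-like ECs at 3119 and 3123. H2-D1 was highest in aerocyte-like ECs at 2736 and 2652, and H2-K1 in proliferating-like ECs at 2194 and 2252. The heavy chains thus peaked in different clusters.

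Tap1 was at 199 and 168 UPM in proliferating-like and 174 and 215 in Ubd-led ECs, against 75.1 and 82.3 in general capillary-like ECs. Psmb8 was at 458 and 517 in Ubd-led, 433 and 426 in proliferating-like and 249 and 269 in aerocyte-like ECs. Aerocyte-like ECs therefore combined high B2m with the lowest Psmb8 of the named classes in control. Their inducible share was 62.3% in control and 66.6% in Dnmt1iECKO, against 73.0% and 76.6% in Ubd-led ECs. It was also higher in Dnmt1iECKO in the Ifit1-led cluster, at 70.1% and 73.2%, and in general capillary-like ECs, at 70.4% and 73.5%. It was lower in proliferating-like ECs, at 74.0% (72.5 to 75.6) and 71.2% (69.1 to 73.2), in vein-like ECs, at 70% (68.1 to 71.9) and 68.2% (66.2 to 70.1), and in artery-like ECs, at 67.2% (63.2 to 71.0) and 65.1% (60.7 to 69.3). The intervals of the last 3 classes overlapped between the libraries.

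Nlrc5 had an order of its own. It was highest in the Ifit1-led cluster, at 194 and 179 UPM, before Ubd-led ECs at 147 and 134 and proliferating-like ECs at 139 and 143. Aerocyte-like ECs were at 135 and 133, and general capillary-like ECs at 84.2 and 73.6. Over 20 points, from 9 endothelial classes in both libraries and the lymphatic-like and Fabp4-led classes in control alone, the Pearson correlation of its log2 level with the mean of the other 9 genes was 0.48, the lowest of the 10. With Psmb10 it was −0.07, with Psmb8 0.04 and with Psmb9 0.12. For Tap1 the correlation with the mean of the others was 0.92, the highest, and for H2-K1 0.88. These values are descriptions, since the points share libraries, and classes differ in depth. The points include a shallow class led by AY036118, with a median of 3016 and 2224 UMIs per cell. There Nlrc5 was at 41.6 and 49.8 UPM, from 12 and 5 UMIs, and Psmb8 at 426 and 558. The part of this class in the correlations was not tested.

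**Figure D4:**
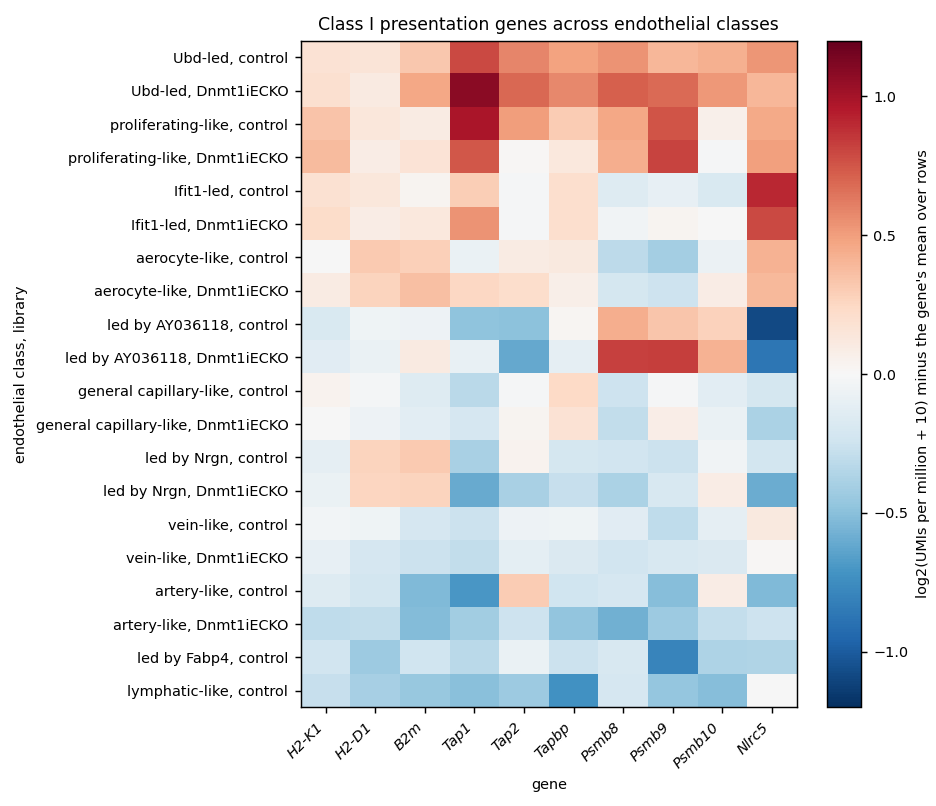
Level of the 10 genes (x axis) in each endothelial class and library (y axis), coloured as log2(UMIs per 1000000 + 10) minus the gene's mean over rows, red above and blue below. The Ubd-led and proliferating-like rows are red for most genes, the artery-like rows blue, and the Nlrc5 column is reddest in the Ifit1-led rows, at 194 and 179 UPM.

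Between the libraries, the ratios differed by class. The median log2 ratio of the 10 genes was 0.11 in aerocyte-like, 0.11 in Ubd-led and 0.07 in Ifit1-led ECs. It was −0.00 in general capillary-like, −0.07 in vein-like and −0.11 in artery-like ECs, the last from 51 and 47 cells. Tap1 was higher in Dnmt1iECKO in aerocyte-like ECs, at 90.7 and 116 UPM with a log2 ratio of 0.35 (0.20 to 0.50), and in Ubd-led ECs with 0.30 (0.15 to 0.45). In proliferating-like ECs its ratio was −0.24 (−0.48 to −0.01). No difference between these ratios was tested.

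Other genes of the pathway were followed in ECs. Of 13 further class I genes, 8 had at least 100 UMIs, with a median log2 ratio of 0.05; 3 intervals lay above 0, 1 below, and none passed 1.2-fold. Qa-2 heavy chain gene H2-Q7 was at 627 and 649 UPM, and H2-T23, which encodes Qa-1, at 498 and 497. Among 4 other partners of B2m, including the neonatal Fc receptor gene Fcgrt, no interval left 0.

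The general chaperones of peptide loading were lower, in contrast to the inducible genes. Of 5 loading and trimming genes 3 had an interval below 0 and none above. Pdia3, the disulfide isomerase of the loading complex, was at 515 and 477 UPM, and Calr, which encodes calreticulin, at 466 and 432. Of 5 proteasome activator and assembly genes, 2 had an interval above 0 and 1 below, with a median log2 ratio of 0.02. Among them, Psme1 was at 276 and 308 UPM, a log2 ratio of 0.15 (0.11 to 0.20). The 3 constitutive catalytic subunits had a median of −0.04, with Psmb5 at −0.13 (−0.21 to −0.06), and 11 other 20S subunits had a median of −0.01.

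Of 15 regulators, 6 intervals lay above and 4 below 0, and 2 were at least 1.2-fold higher, a share near the 13.5% of all genes. Rfx5, a subunit of the RFX complex that NLRC5 works with at class I promoters, was at 6.53 and 9.34 UPM, a log2 ratio of 0.52 (0.24 to 0.79). Its partner Rfxank was at 8.38 and 10.3 UPM, a log2 ratio of 0.29 (0.03 to 0.55). Irf1, a transcription factor induced by IFNγ, was at 1099 and 1051 UPM. Rfx5 and Rfxank were scarce, and Irf1, which was abundant, did not pass 1.2-fold.

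Both interferon lists were set beside these values. In ECs the 10 genes of the IFNγ list had a median log2 ratio of 0.27, with 8 intervals above 0, 1 below and 5 genes past 1.2-fold upward, where 13.5% of all genes were. Ubd, a ubiquitin-like modifier, was at 31.0 and 97.5 UPM, and the T cell chemokine Cxcl9 at 57.5 and 154. Cxcl10 was at 217 and 312, Gbp5 at 154 and 219 and Gbp2 at 252 and 307. The median was −0.09 for the 8 measured type I interferon genes, with Ifit1 lower at 141 and 104 UPM and Ifit2 higher at 25.3 and 36.2. The class I genes of ECs thus lay between both lists, nearer to equality than Ubd or Cxcl9.

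As a share of all UMIs, Hmga2-positive cells held less of the machinery than ECs of the same library. This is not a count per cell, since a median Hmga2-positive cell held 79810 and 81062 UMIs against 10356 and 10556 in ECs. The median log2 ratio of Hmga2-positive cells over ECs was −0.54 in control and −0.37 in Dnmt1iECKO, or 1.46-fold and 1.29-fold lower. Psmb8 was the exception, higher than in ECs by 0.29 and 0.48 on the log2 scale.

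In Hmga2-positive cells, where 50.6% of all genes were higher in Dnmt1iECKO than in control, all 10 genes were higher, each with an interval above 0. Their median log2 ratio was 0.27 beside 0.00 over all 10151 genes, and 5 of them passed 1.2-fold, as 12.3% of all genes did upward and 10.2% downward. The 5 were Tap1, Tap2, Psmb8, Psmb9 and Nlrc5. Tap1 was at 64.1 UPM (59.3 to 69.2) and 86.9 (82.2 to 91.8), a log2 ratio of 0.44 (0.30 to 0.58). Nlrc5 was at 64.1 (59.3 to 69.2) and 84.2 (79.6 to 89.0), a log2 ratio of 0.39 (0.26 to 0.53). Tap2 was at 44.98 (41.0 to 49.3) and 56.9 (53.1 to 60.9), a log2 ratio of 0.34 (0.17 to 0.51). These 3 genes had the largest ratios in these cells.

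Psmb8 was at 360 UPM (348 to 372) and 450.0 (439 to 461), a log2 ratio of 0.32 (0.26 to 0.38), and Psmb9 at 181 (173 to 190) and 223 (216 to 231), a log2 ratio of 0.30 (0.22 to 0.38). H2-K1 was at 1182 (1161 to 1204) and 1369 (1350 to 1388), H2-D1 at 1512 (1488 to 1536) and 1741 (1720 to 1763), and B2m at 3510 (3474 to 3546) and 3977 (3945 to 4009). Their log2 ratios were 0.21, 0.20 and 0.18. Tapbp was at 162 and 189 UPM and Psmb10 at 161 and 191, with 0.23 and 0.24.
With cells chosen by single UMIs alone, without clusters, the median was 0.17, Nlrc5 was at 0.15, Tap2 at 0.14 and H2-D1 at 0.11. As a mean over cells, Nlrc5 was at 0.77, Psmb8 at 0.26, Psmb9 at 0.18 and Psmb10 at 0.11. Of the 5 genes past 1.2-fold, Tap1 alone stayed past it under all 11 alternatives, between 0.29 and 0.48. Markers of other cells also differed: neutrophil markers were at 0.680 and 6.90 UPM, all immune markers at 4.28 and 9.41, endothelial markers at 101 and 66.9 and fibroblast markers at 1185 and 1312, and their part in these ratios was not tested.

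Further class I genes of these cells had a median log2 ratio of 0.34 over the 6 measured, with H2-Q7 at 0.51 and H2-Q4 at 0.50. The IFNγ list had a median of 0.34, with 5 genes past 1.2-fold higher, among them Gbp2 and Cd74 at 0.44 each, and Cxcl10 lower at −0.89. Type I interferon genes had a median of −0.60, with 5 genes past 1.2-fold lower and Irf7 past it higher. Ifit1 was at 125 and 29.3 UPM, a log2 ratio of −2.09. Within 1 cell class, class I genes and type I interferon genes thus lay on opposite sides of equality.

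Stromal cells also had all 10 genes higher in Dnmt1iECKO, 9 with an interval above 0, where 47.65% of all genes were higher. The median log2 ratio was 0.30 beside −0.01 over all genes, and 5 genes passed 1.2-fold, as 15.8% of 9814 genes did upward and 15% downward. Nlrc5 was at 22.7 and 35.4 UPM, a log2 ratio of 0.64 (0.32 to 0.96), and Tap1 at 36.9 and 54.3, a log2 ratio of 0.55 (0.30 to 0.81). Psmb9 was at 75.01 and 104 UPM, Psmb8 at 162 and 210 and Psmb10 at 108 and 139. The clusters differed: the median was 0.17 in the cluster led by C7, from 139 and 186 cells, and 0.44 in that led by the mesothelial gene Upk3b, from 21 and 40 cells. In the cluster led by Acta2, a smooth muscle gene, it was −0.09 from 37 and 64 cells, with B2m at −0.30 (−0.42 to −0.18) and H2-D1 at −0.27 (−0.46 to −0.09). Higher levels were therefore not shared by all stromal clusters. By cluster alone, without single UMIs, it was 0.13 over all stromal clusters. Fibroblast markers together were at 7699 and 10557 UPM, pericyte and smooth muscle markers at 1601 and 1027 and mesothelial markers at 299 and 432, and their part was not tested.

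Epithelial cells went the other way. Their median log2 ratio was −0.24 beside −0.06 over all genes; 5 genes were past 1.2-fold lower, as 24.6% of 6589 genes with at least 100 UMIs were. Nlrc5 was also past it, upward, but its UMIs in both libraries together were too few for it to be among these genes, of which 15.6% were past it upward. H2-K1 was at 1628 and 1234 UPM, a log2 ratio of −0.40 (−0.47 to −0.33), and H2-D1 at 1452 and 1059, a log2 ratio of −0.46 (−0.53 to −0.38). B2m was at 1791 and 1457 UPM, Psmb8 at 182 and 137 and Psmb9 at 76.7 and 49.3. Nlrc5 was at 14.3 and 24.4 UPM from 46 and 49 UMIs. The 4 surfactant and other alveolar type 2 markers were at 139543 UPM in control and 84903 in Dnmt1iECKO, and skin epithelium markers at 7.77 and 106; their part in these ratios was not tested. The clusters differed: the median was −0.37 in the cluster led by Sftpc, a surfactant gene of alveolar type 2 cells, from 77 and 39 cells, and 0.16 in that led by Ager, a gene of alveolar type 1 cells, from 85 and 42 cells.

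Immune cells, the most numerous class of the Dnmt1iECKO library, differed little between the libraries when taken as a whole. Their median log2 ratio was 0.09 beside 0.06 over all genes, with 8 of the 10 genes higher, all with an interval above 0, where 60.4% of all genes were higher. None of the 10 was past 1.2-fold, whereas 19.3% of 12788 genes were past it upward and 13.8% downward. By cluster, the median ran from −0.32 in neutrophils to 0.24 in the cluster led by Jchain. Thymocytes, at 17 control and 324 Dnmt1iECKO cells, were too few in control for a ratio. The part of this makeup in the pooled ratios was not tested. Psmb8 was higher than in ECs, at 470 and 500 UPM, and highest in dendritic cells at 957 and 991. Nlrc5 was highest in T cells at 212 and 222 UPM, above every endothelial class. Neutrophils, at 53 and 275 cells, had low H2-K1 at 877 and 502 beside H2-D1 at 2715 and 2683. The heavy chains thus stood further apart in neutrophils than in ECs.

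The spread over single cells was read after thinning each cell to 2000 UMIs, which left out 76 control and 47 Dnmt1iECKO ECs that were shallower. A median EC then held 19 UMIs of the 10 genes in control and 20 in Dnmt1iECKO, with 5th and 95th percentiles of 7 and 34 in control and 8 and 35.6 in Dnmt1iECKO. The coefficient of variation was 0.41 in both, against 0.23 and 0.22 from counting alone. Hmga2-positive cells held a median of 14 and 15, stromal cells 7 and 9, and epithelial cells 8 and 5. The distributions of both EC groups overlapped almost wholly.

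**Figure D5:**
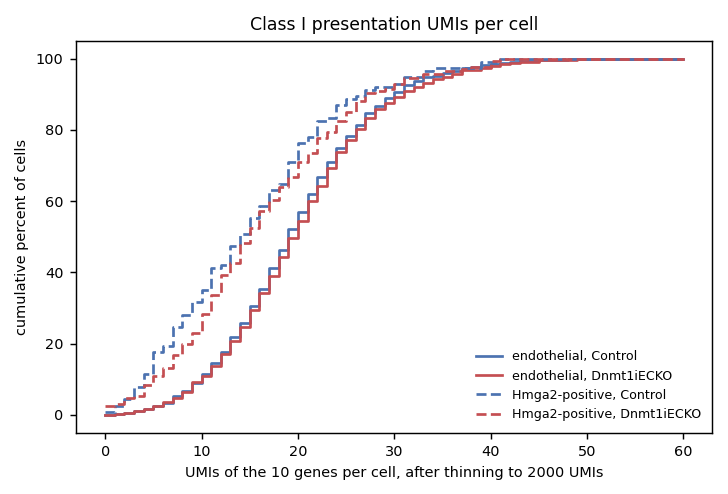
Cumulative percent of cells (y axis) by the number of UMIs of the 10 genes per cell after thinning to 2000 UMIs (x axis), by cell class and library. The control and Dnmt1iECKO curves of endothelial cells, with medians of 19 and 20, lie close together and to the right of those of Hmga2-positive cells, with medians of 14 and 15.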

How the data were processed

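The values deposited by the authors are raw UMI counts per gene and cell of 1 control and 1 Dnmt1iECKO library, made with Cell Ranger on mm10 per the submitters' processing notes, with cells already called and no normalization. Totals were 123830489 and 141433493 UMIs. From these, cells with fewer than 500 genes or over 10% mitochondrial UMIs were removed, and so were the highest Scrublet scores at 0.4% per 1000 cells (scanpy 1.11.5), since DoubletFinder was not available. Seurat 5.3.0 (R 4.3.3) gave the clusters (2000 variable genes without the 10 members and Dnmt1, 30 components, resolution 0.5). For the clusters of all cells the libraries were merged without integration. For the clusters within ECs they were integrated. Clusters were named from at least 3 markers with at least 10% of cells and a log2 fold of at least 1 (0.5 within ECs) over other cells, and otherwise by leading genes. Class names are therefore rebuilt here and are not the study's. Dendritic, T cell and other immune names follow the same rule.

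UMIs were summed per class and library in Python 3.11.15 (numpy 2.4.6, scipy 1.17.1, pandas 2.3.3). Levels have exact Poisson, ratios exact conditional and shares exact Clopper-Pearson 95% intervals. Medians and shares over all genes took those whose summed UMIs of both libraries reached 100. All 10 members are named in every class, and pathway genes are named if past 1.2-fold in ECs or among the highest of their list. Pathway genes named in Hmga2-positive cells, and those named in ECs for their place in the pathway, were chosen after their values were seen. The members and lists were chosen with earlier results of these data known. The calculations were tested on simulated data. Positions and overlaps are from GENCODE vM21 on GRCm38, the build of mm10. The result of 1 pathway gene is not reported here.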

Additional observations from a re-analysis of the deposited data

Results flagged for a closer look

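Several of the 10 genes lay on opposite sides of equality in different cell classes, with counting intervals that excluded 0 on both sides. The differences below are between the highest and the lowest log2 ratio of Dnmt1iECKO over control, and none was tested, since each class has 1 library per condition. H2-K1 was at 0.25 in stromal and −0.40 in epithelial cells, a difference of 0.65. H2-D1 was at 0.20 in Hmga2-positive and −0.46 in epithelial cells, a difference of 0.66. B2m was at 0.18 and −0.30 in the same classes, a difference of 0.48. Psmb8 was at 0.38 in stromal and −0.41 in epithelial cells, a difference of 0.79, and Psmb9 at 0.47 and −0.64, a difference of 1.11. Nlrc5 was the reverse case, at 0.77 in epithelial cells and −0.11 in ECs, a difference of 0.88.

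A cluster of cells with few UMIs, in which Hmga2 was detected in 67.0% of control and 65.0% of Dnmt1iECKO cells, was in no class of the report. In it the 10 genes together were at 7112 UPM (6957 to 7270) in 312 control cells and 6306 (6145 to 6470) in 263 Dnmt1iECKO cells. A median cell there held 1486 and 1399 UMIs. Its direction between the libraries was opposite to that of the Hmga2-positive cells, at 7241 and 8368, which held far more UMIs per cell.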

How the results depend on the processing

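No paired analysis was possible because each condition has 1 library, and no replicate could be left out. In ECs, the median log2 ratio of the 10 genes was 0.05 and lay between 0.02 and 0.06 over 14 alternatives of filters, doublet removal, gates, scaling and class makeup. Between 6 and 7 of the 10 genes were higher in Dnmt1iECKO, and the difference in inducible proteasome share lay between 2.32 and 3.78 points. In Hmga2-positive cells over ECs, the control median of −0.54 became −0.43 with cells chosen by single UMIs, −0.355 with median-of-ratios size factors and −0.46 as a mean over cells, and the Dnmt1iECKO median of −0.37 became −0.23 with size factors and −0.25 as a mean over cells. The Dnmt1iECKO over control median became 0.17 in Hmga2-positive cells with single UMIs, 0.135 in stromal cells by cluster alone and 0.16 in the Ager-led epithelial cluster alone; the cause was not tested. Of 97 such values, 89 stayed within their spread, which was set from the half-widths of the counting intervals other than for the count of higher genes. Of the further values, mostly of single genes, 259 stayed within their spread, 40 moved past it and 1 reversed. The share of ECs with a Tap1 UMI, Dnmt1iECKO minus control, was 2.99 points after thinning to 2000 UMIs and reversed to −0.32 points after thinning to 1000; the cause was not tested. Gene by gene in Hmga2-positive cells, the log2 ratio lay between 0.15 and 0.77 for Nlrc5, 0.14 and 0.42 for Tap2 and 0.11 and 0.24 for H2-D1. Depth limits the epithelial, stromal and small endothelial classes most, in which Nlrc5, Tap1 and Tap2 rest on few UMIs. Alternatives that leave out named clusters, and those for stromal and epithelial cells, were chosen after seeing the data.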

Other observations

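Genes outside the machinery whose log2 level followed the mean of the 10 genes most closely over the 20 points of endothelial class and library were Tiam1, with a Pearson correlation of 0.88, Igtp with 0.87, Akr1b8 with 0.86, Rassf2 with 0.84 and Gbp10 with 0.83. Igtp and Gbp10 encode interferon-inducible GTPases. Cd274, which encodes the checkpoint ligand PD-L1, was among the leading 10 with 0.79 and was at 107 UPM in control and 122 in Dnmt1iECKO ECs. The points share libraries and no p-value is given.

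Macrophages were the immune class with the most members higher in Dnmt1iECKO beyond counting error, at 7 of 10, with B2m at 4735 and 5525 UPM and H2-D1 at 2287 and 2667. Such a count grows with the UMIs of a class, and macrophages held the most of the immune classes, at 7682666 and 20860860. In the clusters led by Kcnip4 and Jchain all 10 members were higher. Their median log2 ratios were 0.19 and 0.24, against 0.16 in macrophages. In the cluster led by Lef1 4 members had an interval below 0 and none above. The share of all genes with such intervals was not computed in these classes. The cluster of plasma cell gene Jchain, from 21 and 60 cells, had B2m at 2649 and 4468 UPM. None of these differences has a replicate.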
